A study of Mus musculus with 3 samples.

Results

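Transcripts of 8 surface and precursor-associated genes, Cd7, Siglech, Ly6c2, Ly6a, Plac8, Flt3, Kit and Cd34, were followed through the conventional dendritic cell (cDC) lineage of mouse tumours. They were chosen by name, as genes used to recognise dendritic cell precursors and haematopoietic progenitors, and are 8 of the 32285 genes in the count matrices. Each had a unique molecular identifier (UMI, the count of 1 captured transcript) in each of 3 libraries, and all 8 had 100 or more UMIs in the cells that the study classed as type 1 cDCs (cDC1s). The study asked which states cDC1s take in tumours, and included precursors (pre-cDCs) and type 2 cDCs (cDC2s) in the same libraries. MCA205 LA-OVA fibrosarcomas were grown on both flanks of mice aged 6 to 20 weeks and taken on day 5 after injection. The 3 groups were WT mice, sGSN-/- mice, which lack secreted gelsolin, and sGSN-/-Clec9a-/- mice, which lack in addition the receptor for dead-cell actin, DNGR-1; none received a further treatment. Tumours were pooled within a genotype and gave 1 library each, so that a genotype cannot be told apart from its library. The sort took live CD11c- and MHCII-positive cells without CD88 (C5ar1), B220, NK1.1, CD3e or Ly6D, and defined pre-cDCs by Flt3 (CD135) and CD43 protein, cDC1s by XCR1 and cDC2s by Sirpa. Flt3 was thus both a gate of the sort and 1 of the genes described.

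cDCs arise from bone marrow precursors that travel through the blood and finish their differentiation in tissue. Flt3 ligand drives this path, while Kit and CD34 belong to earlier progenitors and are lost or lowered as cells commit. Ly6C, Siglec-H and CD7 are carried by parts of the precursor pool and by plasmacytoid dendritic cells (pDCs), so that none of them marks a single cell type by itself.

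The libraries held 12763 (WT), 8173 (sGSN-/-) and 9273 (sGSN-/-Clec9a-/-) barcodes with 176578136, 109270958 and 113411930 UMIs. The deposited table of cDC1s listed 2316, 1712 and 1778 of them, 5806 in all, in clusters 0 to 11, with median depths of 14092, 14150 and 12231 UMIs. Another 23052 barcodes outside the table passed 200 genes and a mitochondrial share of at most 16.7%. Pairs of libraries shared 26, 28 and 27 barcode sequences, of which 2, 2 and 3 were in the table. Clec9a had 5502, 3970 and 2 UMIs in the cDC1s of the WT, sGSN-/- and sGSN-/-Clec9a-/- libraries, so the targeted transcript was nearly absent from the last. Gsn stood at 152, 169 and 167 CPM (UMIs per 1000000 UMIs); a count over the whole gene does not separate the secreted form from the others. All levels below are CPM, the gene's UMIs over the summed UMIs of a group of cells, in the order WT, sGSN-/-, sGSN-/-Clec9a-/-, and errors are the SD over the 3 libraries unless named.

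The study grouped clusters 4 and 1 as early cDC1s. Both carried cDC1 markers: Xcr1, Clec9a, Cadm1 and Itgae together gave 188, 194 and 164 in cluster 4 and 433, 494 and 367 in cluster 1, the last library lacking Clec9a. Cluster 4 thus had the lower cDC1 sum in each library. The clusters were called on these same counts, so every difference between clusters is a description with no test. Cluster 11, with 60 cells and a median of 2348 UMIs, was too shallow to be placed in the orders that follow.

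Cd7 encodes an immunoglobulin-family surface protein of T cells, NK cells and dendritic cell precursors. It stood at 69.6, 48.1 and 44.8 in cluster 4 and at 5.12, 4.77 and 1.31 in cluster 1. Cluster 4 was the highest of clusters 0 to 10 in each library, and none of the other clusters came near it: cluster 10 followed with 7.82 ± 1.61, and from there down no neighbours in the order were separated in all 3 libraries. At least 1 Cd7 UMI was found in 155 of 512 cells of cluster 4, or 30.3% (exact Clopper-Pearson 95% interval 26.3 to 34.5). In cluster 1 it was 41 of 820, or 5% (3.61 to 6.72), at a median of 13524.5 UMIs per cell against 11172 in cluster 4. No group served as a clean background for Cd7. Barcodes outside the table with monocyte or macrophage markers showed it in 8.57% at a median of 16238 UMIs, more than cluster 0 of the table with 2.83% (1.89 to 4.06) at 14925. With cells thinned to 3900 UMIs, here and below without the 288 table cells and 3892 outside barcodes that have fewer, the shares became 16.9% in cluster 4, 1.90% in cluster 1, 0.711% in cluster 0 and 3.76% in the monocyte and macrophage barcodes. The Cd7 share of cluster 4 was above all of these, while how much of that of cluster 1 is background was not determined. Within cluster 4 the transcript was spread over many cells: 32 of the 155 cells with Cd7 held as many of its 355 UMIs as all others together, and the richest cell had 27.

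Siglech encodes a sialic acid-binding receptor of pDCs and of part of the precursor pool, and its order was another one. It stood at 14.4, 17.5 and 21.3 in cluster 1 and at 5.05, 4.47 and 5.10 in cluster 4. Cluster 1 was the highest in each library, ahead of cluster 5 at 5.62 ± 1.82; cluster 4 came next at 4.87 ± 0.352, and neighbours from cluster 5 down overlapped. The share of cells with a UMI was 18.3% (15.7 to 21.1) in cluster 1 and 4.30% (2.71 to 6.43) in cluster 4. The background in monocyte and macrophage barcodes was 2.90%, inside the interval of cluster 4. Thinned to 3900 UMIs, the shares were 6.84%, 1.22% and 0.807% in cluster 1, cluster 4 and that background. Cd7 and Siglech were thus highest in different clusters of the early group. Of the 150 Siglech cells in cluster 1, 9 also had Cd7, and of the 22 in cluster 4, 11 did.

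Ly6c2 encodes the Ly6C surface antigen, a lipid-anchored protein of monocytes, pDCs and some precursors. It stood at 45.5, 54.1 and 40.2 in cluster 4, at 28.1, 43.1 and 58.7 in cluster 7 and at 12.6, 10.1 and 12.4 in cluster 1. Clusters 4 and 7 were highest and overlapped; clusters 10, 8 and 1 followed, and cluster 1 stood above the next in line, cluster 2, in all 3 libraries. A UMI was found in 17.4% of the cells of cluster 4 and 8.66% of cluster 1, or 9.16% and 4.05% when thinned. No cell type here lacks Ly6c2 with certainty, so no background is given; NK/T-marked barcodes had it in 20.2% and pDC-marked ones in 93.0%. In cluster 4, 10 of 89 cells held as many of the 297 Ly6c2 UMIs as all others together. The level in cluster 4 was therefore carried by few cells. Of the UMIs, 61.3% lay in cells with 2 or more cell cycle genes and 30.3% in cells with markers of another cell type. These were 163 and 43 of the 512 cells, and for Plac8, found in 488 cells, the shares were 38.7% and 10.8%. In cluster 1 the Ly6c2 shares were 31.5% and 1.54%. The neighbouring copy Ly6c1 shares 93.5% of the last 300 transcript bases with Ly6c2 and had 52 UMIs in the whole of the libraries; reads that fit both copies are not counted for either, so the Ly6c2 level is uncertain to that extent.

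Ly6a encodes Sca-1, the stem cell antigen, a relative of Ly6C that interferons also induce. It stood at 159, 296 and 177 in cluster 10, 173, 137 and 208 in cluster 7, 81.2, 64.0 and 98.0 in cluster 4 and 50, 43.5 and 52.4 in cluster 1. Clusters 10 and 7, which the study described as activated, were highest and overlapped, and cluster 7 and then cluster 4 each stood above the next in all 3 libraries. By share of cells the early clusters changed places: 15.2% (12.2 to 18.6) of cluster 4 and 23.0% (20.2 to 26.1) of cluster 1 had a Ly6a UMI, or 8.76% and 10.3% when thinned. In cluster 4, 8 cells held as many of the 511 Ly6a UMIs as the others together, the richest with 76. Of those UMIs 73.4% lay in cells with 2 or more cell cycle genes and 41.1% in cells with markers of another cell type, 163 and 43 of 512 cells. In cluster 1 these Ly6a shares were 37.1% and 7.61%. NK/T-marked barcodes gave 13.8% and monocyte or macrophage barcodes 42.6%, at median depths of 7971 and 16238 UMIs, so no group served as a background free of Ly6a.

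Plac8 encodes a small cysteine-rich protein abundant in pDCs, monocytes and precursors. It stood at 928, 1259.7 and 1134 in cluster 7, 905, 949 and 926 in cluster 4, 815, 912 and 907 in cluster 10 and 587, 709.9 and 774 in cluster 1. Clusters 7, 4 and 10 overlapped, cluster 10 stood above cluster 1 in every library, and cluster 1 stood above cluster 5. The lowest were cluster 6, at 172 ± 19.8, and cluster 9, at 147 ± 37.8. A UMI was present in 95.3% of the cells of cluster 4 and 91.6% of cluster 1, or 90.8% and 77.6% when thinned, against 41.6% and 24.9% in monocyte and macrophage barcodes. As monocytes carry Plac8, these barcodes are no background free of it.

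The cytokine receptors took other orders. Flt3, the receptor for Flt3 ligand, stood at 426, 412 and 361 in cluster 6, 158, 157 and 144 in cluster 1 and 113, 97.8 and 109.9 in cluster 4. Cluster 6 was highest in each library, cluster 2 followed at 174 ± 2.22, clusters 0, 1, 3, 9, 8, 7, 10 and 5 came next with each overlapping its neighbour, and cluster 4 had the lowest mean, below cluster 5 in all 3 libraries but above cluster 10 in 1. A UMI was found in 82.3% of cluster 1 and 65.4% of cluster 4, or 43.5% and 32.4% when thinned, with 11.3% and 5.02% in NK/T-marked barcodes as background. Kit, the receptor for stem cell factor, stood at 358, 216 and 258 in cluster 10, 120.5, 141 and 117 in cluster 4 and 123, 127 and 116 in cluster 1. Cluster 10 was the highest for Kit, and clusters 6, 4 and 1 followed with overlapping values. Kit UMIs were found in 63.5% of cluster 4 and 69.0% of cluster 1, or 35.6% and 37.6% when thinned, against 17.7% and 9.11% in pDC-marked barcodes at a median of 9665 UMIs.

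Cd34 encodes a sialomucin of haematopoietic progenitors and endothelium. It stood at 10.9, 9.43 and 7.93 in cluster 4 and 12.3, 7.16 and 8.51 in cluster 1. Both overlapped, and cluster 1 stood above cluster 7, next in line at 2.28 ± 0.0876, in all 3 libraries. A UMI was found in 10.9% (8.37 to 14.0) of cluster 4 and 10.6% (8.59 to 12.9) of cluster 1, and in 2.65% of NK/T-marked barcodes; thinned, these shares were 4.07%, 3.29% and 0.770%. Monocyte and macrophage barcodes cannot serve as background here, as 28.1% of them had Cd34, more than either early cluster. Cd34 was the one member for which both early clusters lay above the other clusters 0 to 10, though on only 61 and 106 UMIs.

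**Figure D1:**
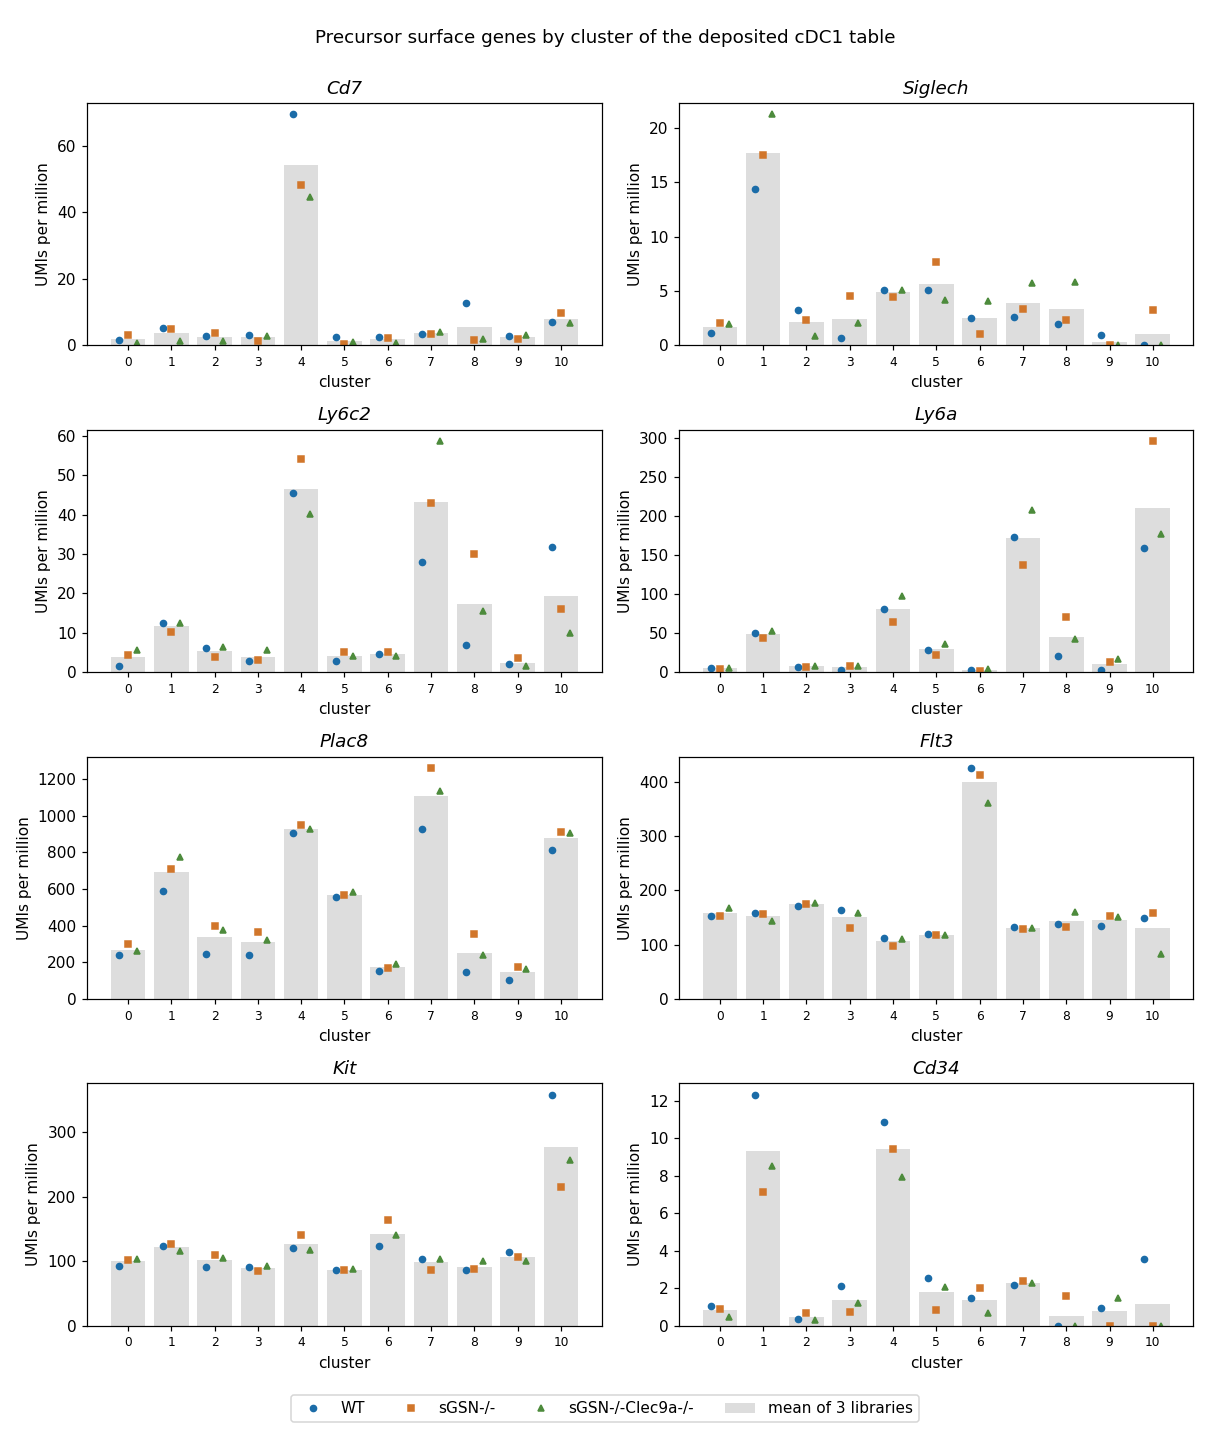
Each panel shows 1 gene, with the clusters 0 to 10 of the deposited cDC1 table on the x axis and CPM of the summed counts on the y axis; points are the 3 libraries and grey bars their mean. Cd7 reaches 69.6, 48.1 and 44.8 in cluster 4, Siglech 14.4, 17.5 and 21.3 in cluster 1 and Flt3 426, 412 and 361 in cluster 6.

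Set side by side, 4 members were higher in cluster 4 than in cluster 1 with no overlap of the 3 libraries, against 21.1% of 10389 genes with 20 or more UMIs. Another 2 members were lower with no overlap, against 9.39% of genes; 3 sums against 3 separate by chance in 10% of genes, both directions together. Cd7 was higher in cluster 4 by a log2 ratio of 3.99 ± 0.85 (SD, n = 3 libraries), which rests on 22, 18 and 4 UMIs in cluster 1 and is not corrected for background. Ly6c2 was 3.95-fold higher, with a log2 ratio of 1.98 ± 0.38. Smaller ratios were found for Ly6a, 0.72 ± 0.17, and Plac8, 0.43 ± 0.18, and they rest on different numbers of cells as given above. Siglech was 3.46-fold lower in cluster 4, -1.79 ± 0.28 on the log2 scale. Flt3 was lower as well, at -0.52 ± 0.15. Kit, at 0.05 ± 0.10, and Cd34, at 0.05 ± 0.31, did not differ beyond the spread of the libraries. The Ly6a ratio did not hold under 4 alternatives: it was 0.13 with cells thinned to 3900 UMIs, 0.047 as a mean of single cells, 0.15 without cells holding 2 or more markers of another cell type and -0.52 without cells holding 2 or more cell cycle genes. The Ly6c2 ratio was 1.53, 1.49, 1.55 and 1.02 in that order. The Siglech ratio was -2.20 thinned, -2.29 as a mean of single cells and -3.0 without cells holding cell cycle genes. Holding 2 such genes does not by itself mark a dividing cell: 31.8% of cluster 4 and 32.1% of cluster 1 met it, with Tubb5 the most abundant and list sums of 176, 184 and 279.9 and 218, 236 and 219, against 1155, 1706 and 1468 in the unmarked barcodes outside the table. Monocyte and macrophage markers moved with these ratios: all 7 genes of the list were detected in both clusters, Fcgr1 the most abundant, with a sum of 58.3, 52.1 and 82.2 in cluster 4 and 26.5, 19.1 and 22.6 in cluster 1, and 39 cells of cluster 4 and 19 of cluster 1 had 2 or more of them. The cDC2 list, all 4 genes detected and Itgam the most abundant, moved as well, at 111, 89.3 and 152 in cluster 4 and 34.9, 44.8 and 27.2 in cluster 1. The part of these markers in the result was not tested. No doublet caller was run. Of the genes by which the study described both early clusters on these samples, S100a4 and S100a6 were higher in cluster 4 (1.91 ± 0.15 and 0.83 ± 0.06) and Ifitm1 was not separated (-0.06 ± 0.14); they are not independent of the clustering.

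Cd209a, a lectin of cDC2s and their precursors, followed Cd7 only in part. In cluster 10, where Cd7 had 7.82 ± 1.61, it stood at 109.8, 448 and 73.6, above cluster 4 in 1 library. It stood at 209.8, 162 and 177 in cluster 4 and 22.3, 15.7 and 21.0 in cluster 1, and 84 of the 155 Cd7 cells of cluster 4 carried it (54.2%), against 215 of all 512. In cluster 1, 5 of 41 Cd7 cells did (12.2%), against 87 of all 820 (10.6%).

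The genes most like each member were sought over the 33 sums of clusters 0 to 10 in 3 libraries, among 4627 genes, by Pearson's r; the sums share libraries and clusters, so r is a description. Cd7 ran closest to Lst1 (0.81), Cd209a (0.80) and Trappc5 (0.80). For Siglech these were Smim3 (0.79), Neurl3 (0.73) and Spint1 (0.71). For Cd34 they were Smim3 (0.82), Neurl3 (0.81) and Snx18 (0.80), so Smim3 and Neurl3 stood near both. Ly6c2 was followed by Ms4a4c (0.88), Ifitm3 (0.83) and Cyb5r3 (0.83). Ly6a had Ms4a4c (0.96), Ifitm3 (0.93) and Nsmce1 (0.90), sharing its nearest pair with Ly6c2. Plac8 ran with Cycs (0.89), Ms4a6c (0.89) and Ifitm6 (0.88). For Flt3 they were Hook3 (0.89), Ccdc88b (0.87) and Tbc1d9 (0.84), and for Kit Atp7a (0.82), Hhex (0.82) and Mysm1 (0.79). Ly6a and Ly6c2 lie in 1 gene cluster on the minus strand of chromosome 15, Ly6a from 74994877 to 74998031 and Ly6c2 from 75108158 to 75111970 in the mm10 build. Genes on the opposite strand overlap Cd7 (Gm11775), Flt3 (Gm26597) and Cd34 (Gm16897).

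Between genotypes there was 1 library each, so values carry only the exact Poisson 95% interval of the counts, in brackets, and no test. Over the whole table Cd7 was 8.54 (7.57 to 9.60), 6.83 (5.82 to 7.97) and 5.22 (4.29 to 6.28). The WT and sGSN-/-Clec9a-/- intervals did not overlap. Ly6c2 was 9.95 (8.89 to 11.1), 14.5 (12.98 to 16.1) and 13.9 (12.3 to 15.5), lowest in WT. Ly6a was 32.4 (30.5 to 34.4), 37.6 (35.2 to 40.2) and 43.1 (40.4 to 46.0), again lowest in WT. Neither the Ly6c2 nor the Ly6a order held in every cluster. Ly6a was lowest in sGSN-/- in clusters 7, 4 and 1 and in WT in cluster 10. Ly6c2 was lowest in sGSN-/-Clec9a-/- in cluster 4, in sGSN-/- in cluster 1 and in WT in cluster 7. Plac8 was 406 (399 to 413), 556 (546 to 565) and 514 (504 to 524), with WT below both others. Within clusters 4 and 5 the libraries lay closer, at 905 to 949 and 556 to 581. The make-up of the table also differed: cluster 2, low in Plac8, held 357 of 2316, 196 of 1712 and 263 of 1778 cells. The part of this was not tested. For the other members only the values are given: Siglech was 4.01, 5.64 and 5.45, Flt3 167, 154 and 164, Kit 104, 110.2 and 109 and Cd34 3.61, 2.84 and 2.61.

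Most transcripts of all 8 genes lay outside the cDC1 table, as did most UMIs of the libraries. The table held 32676177 of 176578136 UMIs in WT, 23563047 of 109270958 in sGSN-/- and 21473550 of 113411930 in sGSN-/-Clec9a-/-. Per UMI, Flt3 was higher in the table than in NK/T-, monocyte or macrophage- and pDC-marked barcodes, in each library. Of 27363 Cd7 UMIs in the libraries, 552 were in the table, and of 10898 Siglech UMIs 381 were. The study used Cd7 to annotate clusters of pre-cDCs and Siglech to recognise pDCs, and kept both apart from the cDC1s. Low counts of these genes inside the table therefore follow in part from how the table was made. Barcodes outside the table were marked for another cell type when 2 or more genes of a fixed list had a UMI: 4653 for NK/T, 612 for pDC, 7526 for monocyte or macrophage, 53 for mast cell or basophil, 45 for stroma or endothelium, 6 for neutrophil and 2 for B cell. Levels and shares of marked barcodes, here and above, are of those marked for 1 list alone: 4234 for NK/T, 502 for pDC and 7072 for monocyte or macrophage. pDC-marked barcodes had Cd7 at 591, 598 and 414. They had Siglech at 996, 1357 and 1196 and Ly6c2 at 1444, 1667 and 1515. Plac8 stood there at 2928, 3293 and 3010.3 and Ly6a at 766, 986 and 911. These 5 members were higher in the pDC-marked barcodes than in any cluster of the table, in each library. Kit was highest in 47 mast cell or basophil barcodes, at 1058, 1734 and 1335. NK/T-marked barcodes had Cd7 at 111, 83.8 and 123, in 40.5% of them, and Siglech at 2.44, 2.88 and 3.15. Cd7 by itself therefore did not separate precursors from NK/T and pDC-marked barcodes, and these were set aside in what follows.

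Among the 10680 unmarked barcodes, 3038 had Cd7, 992 Siglech and 4804 Cd209a. Of those with Cd7, 76.4% also had Cd209a and 22.1% Siglech, and of those with Siglech 67.6% had Cd7. By combination, 555 had Cd7 without the other two, 213 Siglech, 2376 Cd209a, 163 Cd7 and Siglech, 1812 Cd7 and Cd209a, 108 Siglech and Cd209a, 508 all 3 genes, and 4945 none. Detection also depends on depth. The median was 5804 UMIs in barcodes with none of the 3 genes, 10284 with Cd7, 11194.5 with Siglech and 11189 with Cd209a. The part of depth in these overlaps was not tested. Ly6c2 differed between combinations: it stood at 24.2, 19.9 and 23.5 with Cd209a, 93.0, 146 and 129.9 with Cd7, 263, 839 and 1186 with Cd7 and Siglech, and 399, 611 and 603 with all 3 genes. The last pair had no fixed order over the libraries. Plac8 in the first 3 of these stood at 263, 277 and 311, 571, 631 and 787 and 1062, 1912 and 2653. The pDC markers moved along, with sums of 2.68, 3.19 and 3.10 with Cd209a and 12.5, 17.5 and 14.4 with Cd7. They summed to 50.7, 113 and 166 with Cd7 and Siglech and to 57.8, 78.4 and 68.4 with all 3 genes. The part of the pDC markers was not tested. Barcodes with Siglech alone had low Ly6c2, 21.7, 10.8 and 28.5, and the cDC1 markers summed there to 346, 480.5 and 359, against 150.2, 189.6 and 89.7 with Cd7 alone. Depth and cell cycle moved with this contrast: the Siglech barcodes had a median of 17254 UMIs and 69.5% held 2 or more cell cycle genes, against 9606 UMIs and 31.0% of the Cd7 barcodes, and their part was not tested. Cd34 was 32.2, 28.3 and 32.3 with Cd209a and 14.6, 14.3 and 12.4 with Cd7 and Cd209a. Monocyte and macrophage barcodes had Cd34 at 26.7, 26.7 and 25.0, more than either early cluster, so Cd34 UMIs outside the table were not particular to precursors.

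**Figure D2:**
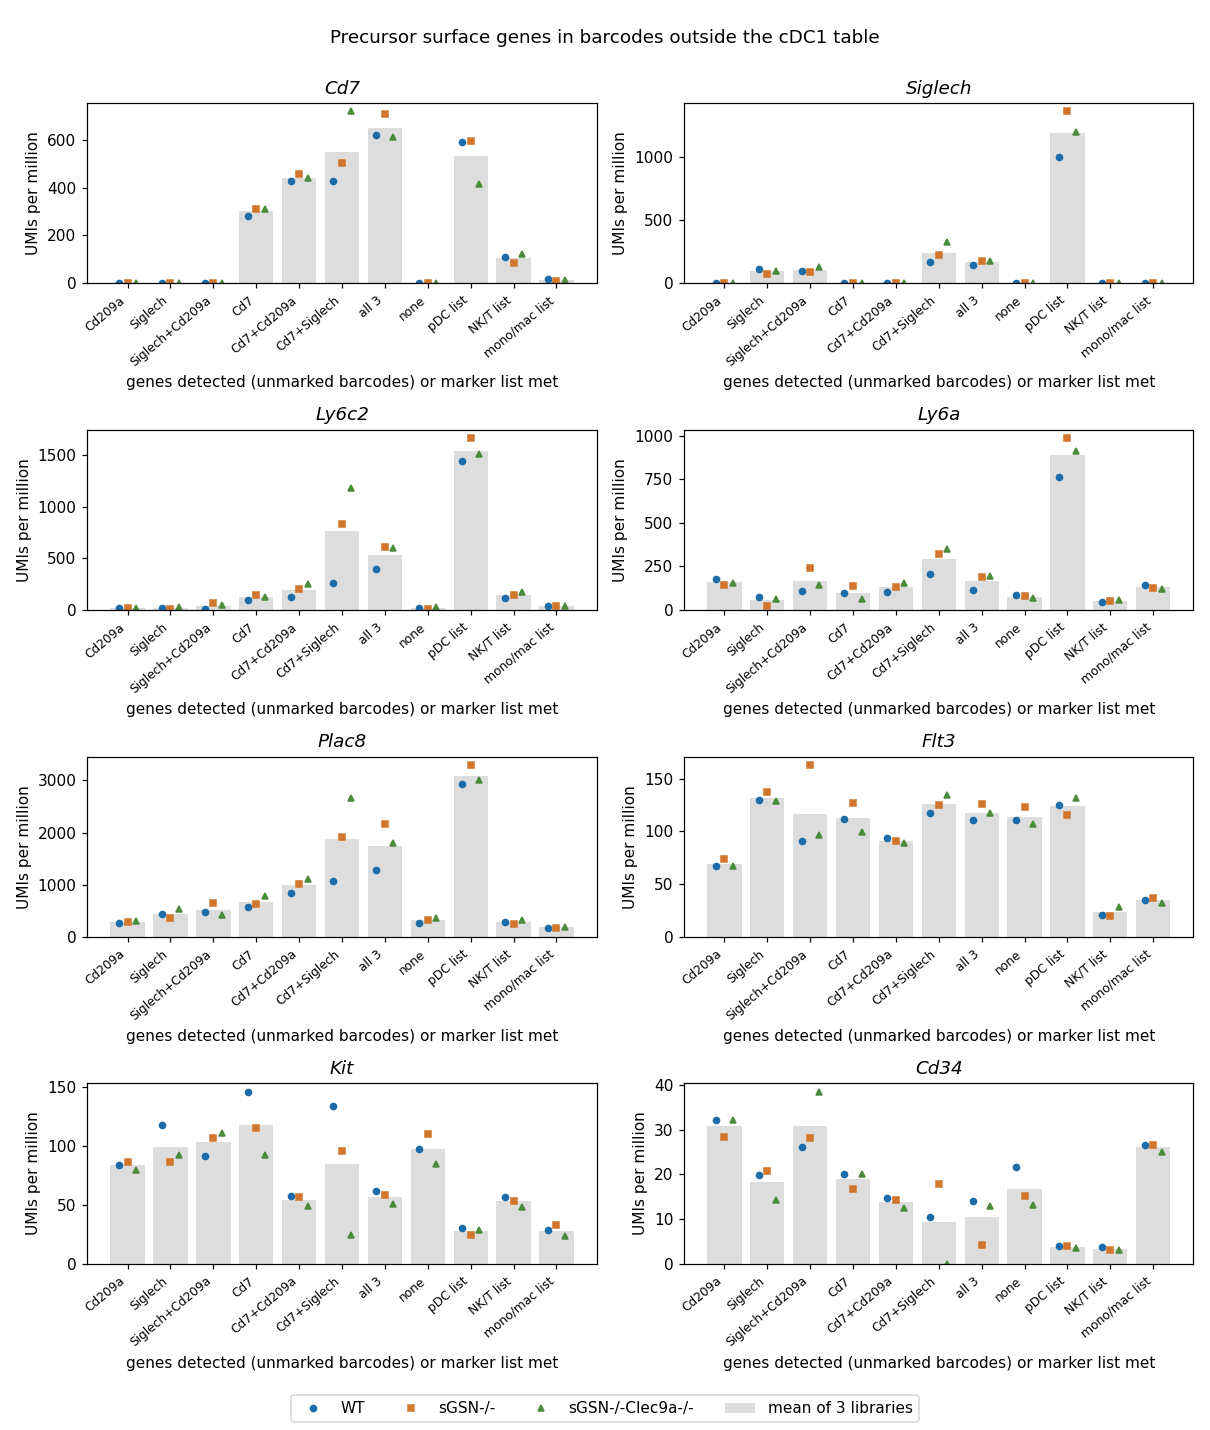
Each panel shows 1 gene in barcodes outside the cDC1 table, with the gene combination detected (unmarked barcodes) or the marker list met on the x axis and CPM on the y axis; points are the 3 libraries and grey bars their mean. A gene that defines a combination is above 0 or at 0 there by construction; Ly6c2 reaches 1444, 1667 and 1515 in pDC-marked barcodes and 399, 611 and 603 where all 3 genes are detected.

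Unmarked barcodes with Cd7 and no Cd209a (718) were then compared with those with Cd209a and no Cd7 (2484), summed per library, by the quasi-likelihood test of edgeR, with p adjusted after Benjamini and Hochberg over 10359 genes (threshold 0.05). Cd7 barcodes had more Siglech, Ly6c2, Plac8 and Flt3 and less Cd34. In all, 4 of 7 members tested rose, against 5.44% of all genes, and 1 fell, against 6.74%; 1262 genes were called (12.2%). The median log2 difference of the members was 0.58, beside 0.01 over all genes. Siglech stood at 41.1, 54.7 and 73.8 in Cd7 barcodes and 5.13, 4.62 and 6.61 in Cd209a barcodes. It rose by 3.21 on the log2 scale (SE 0.22, edgeR adjusted p = 7.11e-07), in 3 of 3 libraries. Ly6c2 stood at 134, 316 and 369.9 against 23.5, 22.4 and 24.9. It rose by 3.39 (SE 0.28, edgeR adjusted p = 3.58e-06), in 3 of 3 libraries, least in WT. Plac8 stood at 689, 945 and 1211 against 274, 296 and 316. It rose by 1.57 (SE 0.17, edgeR adjusted p = 3.27e-05), in 3 of 3 libraries. Flt3 stood at 113, 127 and 107 against 68.5, 78.2 and 68.5. It rose by 0.58 (SE 0.08, edgeR adjusted p = 0.000381), in 3 of 3 libraries, and with barcodes marked by 1 gene left out it no longer passed (0.38, edgeR adjusted p = 0.173, 3.03e-06 to 0.173 over all alternatives, DESeq2 among them).

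Cd34 stood at 17.8, 17.1 and 15.5 in the Cd7 barcodes and 31.9, 28.3 and 32.6 in the Cd209a barcodes, lower in 3 of 3 libraries. It fell by 0.99 on the log2 scale (SE 0.14, edgeR adjusted p = 0.000241, 3 of 3 libraries), a call lost when barcodes with 1 marker gene were left out (log2 difference -0.73, edgeR adjusted p = 0.109, 8.98e-10 to 0.109 over all alternatives, DESeq2 among them). Ly6a, at 123, 181 and 129 against 177, 146 and 156, was higher in 1 of 3 libraries and did not pass (log2 -0.28, edgeR adjusted p = 0.161). Kit, at 143, 110.3 and 76.5 against 84.3, 87.6 and 81.1, was higher in 2 of 3 and did not pass (log2 0.30, edgeR adjusted p = 0.218). For Kit the WT library alone was well above its counterpart.

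The lists of related genes are given by their counts, beside 5.44% of all genes called higher and 6.74% called lower; no list was tested as a whole. Of 22 precursor genes, 19 were tested, 8 rose and 3 fell, with a median of 0.34. Tcf4, the transcription factor that sets pDC fate, stood at 265, 276 and 316 against 94.9, 106 and 88.9 and rose by 1.45 (SE 0.10). Spn (CD43, a gate of the sort), Runx2, Cd93, Myb and Sox4 were among the others that rose, while Csf1r, Ccr2 and Nfil3 fell. Among 14 genes of Flt3, Kit and related cytokine signalling, 13 were tested: Csf2rb2 and Stat5a rose, Csf2ra and Socs2 fell. Stat5a, a transducer of cytokine receptors, stood at 35.3, 46.4 and 46.6 against 16.8, 19.6 and 20.1 and rose by 1.05. In the list of cDC1 maturity genes 0 of 12 rose and 5 fell, namely H2-Aa, H2-Ab1, Cd74, H2-DMa and H2-DMb1, all of MHC class II presentation and not particular to cDC1s. Of 8 cDC2 genes tested, Itgam, Clec10a and Mgl2 fell and Ccr6 and Ltb rose, Ltb with the opposite sign when thinned (-0.23). Of the list genes named here, Cd93, Myb, Csf1r, Ccr2, Socs2, H2-DMa, Ccr6 and Ltb lost their call in edgeR with at least 1 library left out, and Spn, Runx2 and Nfil3 when 1 gene marked a barcode. None of 8 cell cycle genes and none of the 3 genes by which the study described early cDC1s (S100a4, S100a6, Ifitm1) passed edgeR's test; for Cd7 against Cd209a barcodes outside the table, 2562 genes had an unadjusted p under 0.05, and DESeq2 called 1050. Beyond the members and the lists of this paragraph the largest rises were in Pi16 (3.69), Cyp7b1 (3.49) and Gm34680 (3.36). The largest falls were in Mrc1 (-5.03), a gene of the monocyte and macrophage list, Fcrls (-4.27), Ear2 (-3.99), Ccl17 (-3.69) and Fcgr3 (-3.48).

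Markers of other cells moved with this comparison. The 7 monocyte and macrophage genes, all detected among the Cd209a barcodes with Mrc1 the most abundant, summed to 135, 131 and 158 there and to 42.5, 44.9 and 45.5 in the Cd7 barcodes, where C5ar1 was at 0. The 5 pDC genes, Ccr9 first, summed to 21.7, 41.0 and 48.8 in Cd7 and 3.48, 4.18 and 4.90 in Cd209a barcodes, with none at 0. The 4 stroma and endothelium genes, Kdr first and none at 0, summed to 11.1, 19.5 and 12.8 and 3.25, 3.46 and 2.94. The 8 NK/T genes, Klre1 first, summed to 24.5, 32.2 and 34.9 and 17.3, 20.6 and 17.9, with Cd3e at 0 in Cd7 barcodes. The 4 cDC2 genes summed to 382, 374 and 301 in Cd7 and 1088, 1050.5 and 1028 in Cd209a barcodes. With every barcode holding even 1 gene of any of the 7 other-cell lists left out, the sums of those lists were 0 by selection. The log2 differences there were 3.66 for Ly6c2, 3.0 for Siglech and 1.25 for Plac8. The cDC2 sums, which are not among those lists, were 377, 285 and 315 in Cd7 and 865, 730 and 874 in Cd209a barcodes. The number of genes called then was 375; it was 673 without the WT library and 756 without the sGSN-/- library. How far these markers account for the result was not tested.

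Next, among the 3038 unmarked barcodes with Cd7, the 671 with Siglech were compared with the 2367 without, over 10158 genes by the same test. Ly6c2 and Plac8 were higher where Siglech was detected, and the other members did not pass. That is 2 of 6 members tested, against 2.60% of all genes called higher, and 0 members lower, against 3.05%; edgeR called 574 genes (5.65%). The median of the members was 0.41, and 0.0019 over all genes. Ly6c2 stood at 369.5, 664 and 726 with Siglech and 121, 186 and 228 without. It rose by 1.66 (SE 0.24, edgeR adjusted p = 0.00108), in 3 of 3 libraries. Plac8 stood at 1228, 2104 and 1974 with and 792, 919 and 1049 without. It rose by 0.88 (SE 0.17, edgeR adjusted p = 0.00695), in 3 of 3 libraries. Both calls were lost without the sGSN-/- library. For Ly6c2 the log2 difference then was 1.58 (edgeR adjusted p = 0.0622, 6.67e-60 to 0.0622 over all alternatives, DESeq2 among them), higher in the 2 libraries left. For Plac8 it was 0.73 (edgeR adjusted p = 0.2, 1.83e-16 to 0.2 over all alternatives, DESeq2 among them). Ly6a stood at 135, 219 and 228 with and 103, 132 and 136 without, higher in 3 of 3 libraries, and missed the threshold (log2 0.58, edgeR adjusted p = 0.0733). With the library as a block Ly6a passed (log2 0.55, edgeR adjusted p = 8.53e-07, 8.53e-07 to 0.599 over all alternatives, DESeq2 among them), higher in 3 of 3 libraries. Flt3 did so too (log2 0.24, edgeR adjusted p = 0.0272, 0.0272 to 1 over all alternatives, DESeq2 among them), higher in 3 of 3 libraries. Without the block Flt3 stood at 112, 126 and 121 against 97.4, 101 and 91.4, a log2 difference of 0.24. Kit, at 77.4, 67.0 and 44.7 against 75.1, 71.8 and 57.7, had -0.15. Cd34, at 13.3, 7.45 and 10.3 against 15.8, 14.9 and 14.0, had -0.53; no difference was called for either.

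Siglech among Cd7 barcodes went with Tcf4, at 471, 653 and 487 against 215, 256 and 195, which rose by 1.22. The lists stand beside 2.60% of all genes called higher and 3.05% called lower, and none was tested as a whole. Of 20 precursor genes tested 7 rose (among them Tcf4, Runx2, Zeb2 and Sox4) and 4 fell (Cd93, Id2, Batf3, Cd209a), with a median of 0.04. Id2 and Batf3, factors that cDC1s need, fell by 0.64 and 0.57 on the log2 scale. Csf2rb2 and Stat5a rose and Csf2ra fell among 13 cytokine signalling genes. Of 12 cDC1 maturity genes Cd24a rose and H2-Aa and H2-Ab1 fell, and of 9 cDC2 genes Cd209d and Irf4 rose and Itgam and Cd209a fell, Cd209a with the opposite sign when 1 gene marked a barcode (0.028). S100a4, 1 of 3 genes named by the study on these samples, fell, and 0 of 8 cell cycle genes passed edgeR's test. With at least 1 library left out, edgeR no longer called Zeb2, Sox4, Cd93, Id2, Batf3, Cd209a, Stat5a, Csf2ra, Cd24a, H2-Aa, H2-Ab1, Irf4, Itgam or S100a4. The calls of Runx2, Cxcl9, Cxcl10 and Ccl17 were lost when 1 gene marked a barcode. The largest rises beside Ly6c2 were in Ccr9 (2.39), a chemokine receptor of pDCs, Sla2 (1.98), Blnk (1.96) and Lefty1 (1.78). The largest falls were in chemokine genes, Cxcl9 (-3.72), Ccl17 (-2.84), Cxcl10 (-2.10), Ccl6 (-1.78) and Ccl5 (-1.72). The pDC list moved along, all 5 genes detected and Ccr9 first, at 56.3, 86.6 and 89.0 with Siglech and 12.9, 17.6 and 16.0 without. So did the 4 stroma and endothelium genes, Kdr first and none at 0, at 13.6, 24.2 and 24.2 and 5.26, 7.38 and 7.09. The monocyte and macrophage list was lower with Siglech, at 45.2, 42.8 and 40.6 (C5ar1 at 0, 6 of 7 detected) against 54.6, 60.4 and 72.7 (all 7 detected), Fcgr1 first in both. The cDC2 list was lower too, at 425, 506 and 385 against 547, 578 and 447. Leaving out every barcode with 1 gene of any of the 7 other-cell lists set the sums of those lists to 0 by selection. The log2 differences there were 1.67 for Ly6c2 and 0.89 for Plac8, and the part of the markers was not tested. For Siglech with against without among Cd7 barcodes outside the table, 1757 genes had an unadjusted p under 0.05 and DESeq2 called 500. Genes called by edgeR numbered 176 without the sGSN-/- library, 374 without WT, 361 without sGSN-/-Clec9a-/- and 1241 with the library as a block.

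Within cluster 4 no other member was called different between cells with and without Cd7. The 155 cells with Cd7 were set against the 357 without. No gene of 7039 passed edgeR's quasi-likelihood test, 0% for the 6 members tested as for all genes; 469 had an unadjusted p under 0.05, DESeq2 called 10 and the fit with the library as a block 16. Ly6a stood at 56.5, 45.9 and 13.9 with Cd7 and 97.2, 71.1 and 132 without, lower in 3 of 3 libraries, and did not pass (log2 -1.25, SE 0.29, edgeR adjusted p = 0.2). Without cells holding 2 or more cell cycle genes the sign turned (0.51). Ly6c2 stood at 57.5, 111 and 37.7 with and 37.7, 31.8 and 41.2 without, higher in 2 of 3 libraries (log2 0.87, edgeR adjusted p = 0.433). Plac8 (0.12), Flt3 (-0.21), Kit (-0.07) and Cd34 (0.09) had smaller log2 differences, and the median of the members was 0.0091, beside -0.0018 over all genes. Cd209a stood at 319, 190.5 and 218 with Cd7 and 139, 151 and 160.2 without, higher in 3 of 3 libraries, with an adjusted p of 0.158 by edgeR (log2 0.72). The cDC2 marker sum was higher with Cd7 as well, at 154, 93.5 and 181 against 83.1, 87.7 and 141, all 4 genes detected. Without cells holding 2 or more markers of another cell type it was 119, 47.8 and 92.3 against 67.1, 77.5 and 126. The sum was then lower with Cd7 in the sGSN-/- and sGSN-/-Clec9a-/- libraries. The 8 cDC2 genes tested had a median log2 difference of 0.76 with none called, and the part of these markers was not tested. Siglech, with 31 UMIs in the cluster, was too low to be tested.

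In cluster 1 no member was called either, on few cells. There 41 cells with Cd7 were set against 779 without, 21, 16 and 4 of the 41 from the 3 libraries. Of 7505 genes edgeR called 1 (0.0133%), and it was no member: Lyz2, which encodes a lysozyme of myeloid cells, stood at 461, 373 and 298 with Cd7 and 668, 603 and 656 without and fell by 0.76 on the log2 scale (SE 0.14, edgeR adjusted p = 0.0056), lower in 3 of 3 libraries. The call was lost without the sGSN-/- library, without the sGSN-/-Clec9a-/- library, without TMM factors and without cells holding 2 or more cell cycle genes. The 7 members tested had log2 differences from -0.34 (Plac8) to 0.95 (Cd34), none past the threshold; 404 genes had an unadjusted p under 0.05. The difference between the Cd7 contrasts of clusters 4 and 1 was tested as an interaction: 0 of 7483 genes passed edgeR's test and 398 had an unadjusted p under 0.05. For Siglech, which had enough UMIs when both clusters were fitted together, it was 1.61 (SE 0.75, edgeR adjusted p = 0.916, 3 libraries). For Ly6a it was -1.25 (SE 0.53, edgeR adjusted p = 0.916, 3 libraries), and for Plac8 0.46 (SE 0.20, edgeR adjusted p = 0.916, 3 libraries). None of the members was called different between the clusters in how it goes with Cd7.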

How the data were processed

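The deposited counts are raw UMIs per gene and barcode, made by the authors with Cell Ranger 6.0.1 on the mm10 (GRCm38) transcriptome and not normalised. Cluster numbers, library names and the counts of UMIs and genes per cell come from the authors' deposited table of cDC1s (Seurat, 4.0.0 in the sample records and version 3 in the methods). Barcodes outside the table were kept at 200 genes or more and a mitochondrial share of at most the mean plus 2 SD (16.7%); 54 and 1300 of 30209 failed these, and 3 table cells that failed were kept. No doublet caller was run; barcodes with 2 or more detected genes of an other-cell list were set apart outside the table, and left out of the table's clusters as an alternative. UMIs were summed per library and group and divided by the summed total. Log2 ratios of clusters used 0.5 added UMI. Intervals are 95% (exact Poisson for levels, Clopper-Pearson for shares) and cover counting error only.

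Sums of 3 libraries per group were fitted in edgeR 4.0.16 (TMM, filterByExpr, quasi-likelihood test, Benjamini-Hochberg, threshold 0.05), with the gate genes left untested; DESeq2 1.42.0 was an alternative. The tests were first run on simulated negative binomial sums with known changes. Those sums were independent, without pairing within a library or differences between genotypes, so that run does not cover either. Python 3.11.15, numpy 2.4.6, scipy 1.17.1, pandas 2.3.3 and R 4.3.3 were used. The sums of 1 library come from the same pool of mice: residuals of paired sums correlated across genes at r of 0.12 to 0.18 for Cd7 against Cd209a barcodes, 0.15 to 0.20 for Siglech among Cd7 barcodes, 0.08 to 0.12 in cluster 4 and 0.05 to 0.08 in cluster 1, and the library as a block was fitted as an alternative.

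Named were all members, the genes of the fixed lists, the 5 largest rises and 5 largest falls among called genes that went the same way in 3 libraries at a mean of 20 CPM or more, and the 3 genes most alike (log2 of CPM plus 1). The members and lists were chosen with earlier results of these data known.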

Additional observations from a re-analysis of the deposited data

How the results depend on the processing

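For the log2 ratios of cluster 4 to cluster 1, Cd7, Plac8 and Flt3 moved by less than the SD between libraries under every alternative run (each library left out, thinning to 3900 UMIs, means of single cells, without marked cells, without cycling cells, here those with 2 or more cell cycle genes). Siglech became -2.20 thinned, -3.0 without cycling cells and -2.29 as a mean of single cells. Ly6c2 became 1.53 thinned, 1.55 without marked cells, 1.02 without cycling cells and 1.49 as a mean of single cells. Ly6a became 0.13, 0.15, -0.52 and 0.047 in that order, reversed without cycling cells. Kit was 0.14 as a mean of single cells and -0.0063 to 0.088 with 1 library left out; Cd34 was -0.12 to 0.16 with 1 library left out and -0.056 without cycling cells. Genes called for Cd7 against Cd209a barcodes outside the table numbered 673 to 899 with 1 library left out and 375 when 1 gene marked a barcode; without TMM factors the count was 1513, with 1030 higher and 483 lower and a median over all genes of 0.13. There Kit turned to -0.041 with 2 UMIs of the gate gene, -0.067 without cycling cells and -0.22 thinned, Ly6a to 0.10 with 2 UMIs and 0.16 thinned, and Ltb to -0.23 thinned. For Siglech with against without among Cd7 barcodes outside the table the count was 953 with no filter, 1241 with the library as a block, 176 to 374 with 1 library left out, 263 thinned and 254 when 1 gene marked a barcode, where Cd209a turned to 0.028. For Cd7 with against without in cluster 4 it was 4 without TMM factors, 10 by DESeq2, 75 with no filter, 16 with the block, 1 to 2 with 1 library left out, 5 with 2 UMIs, 3 without cycling cells, 7 thinned and 5 without marked cells; Kit turned to 0.087 and Ly6a to 0.51 without cycling cells, Kit to 0.00046 and Plac8 to -0.053 thinned, and Cd34 ran -0.027 to 0.33 with 1 library left out. For Cd7 with against without in cluster 1 it was 0 without TMM factors, 13 with no filter, 6 with the block, 0 to 7 with 1 library left out, 249 with 2 UMIs (3 cells with Cd7), 3 without cycling cells, 105 thinned (15 cells with Cd7) and 2 without marked cells. There Ly6a turned to -0.0089 by DESeq2, -0.063 with no filter, -1.66 with 2 UMIs, -7.79 thinned, -1.29 without marked cells and -1.11 to 0.41 with 1 library left out, and Cd34 to -7.26 with 2 UMIs. Without cycling cells Kit, Flt3 and Siglech turned to 0.11, 0.053 and 0.22, thinned Kit and Flt3 to 0.18 and 0.19, and with 1 library left out Siglech ran -0.26 to 0.075 and Flt3 -0.23 to 0.021. The cause was not tested. The block gave a call to Ly6a and Flt3 for Siglech among Cd7 barcodes and changed no other call of a gene named here. Of the other results on single genes, 820 values kept direction and side of the threshold, 109 lost and 17 gained a call. The Cd7 group of cluster 1 had 4 to 21 cells per library; with 2 UMIs or thinned it had 0 cells in the sGSN-/-Clec9a-/- library, so those fits lack that library, rest on few UMIs, are no measure of size and support nothing here.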
